A study of Mus musculus with 11 samples.

Results

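The nuclear genes for subunits of the respiratory chain were followed, complex by complex, in haematopoietic stem cells (HSCs) of the newborn mouse liver. Members were the rows whose symbol begins with Ndufa, Ndufb, Ndufc, Ndufs or Ndufv (but not Ndufaf), with Uqcr, with Cox4i, Cox5, Cox6, Cox7 or Cox8, or with Atp5, together with Sdha, Sdhb, Sdhc, Sdhd and Cyc1. Where a gene had several transcripts, the one with the largest mean in the sorted size fractions was used. The rule found 86 genes of 24064, of which 38 belonged to complex I, 4 to complex II, 9 to complex III, 18 to complex IV and 17 to complex V. It reads names and not function. Ndufa4 was counted under complex I by its symbol, although its protein is known as a subunit of complex IV. The files list under older Atp5 symbols Dmac2, an assembly factor of the complex I membrane arm, and Dmac2l, known as factor B of ATP synthase, and both stayed in complex V by the rule. The 13 subunit genes encoded by mitochondrial DNA were not analysed here.

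The respiratory chain passes electrons from NADH through complex I, or from succinate through complex II, to ubiquinone, then through complex III and cytochrome c to complex IV, which reduces oxygen. Complexes I, III and IV pump protons across the inner mitochondrial membrane, and complex V, the ATP synthase, uses the gradient to make ATP. Adult HSCs are known for a low use of oxidative phosphorylation relative to their progeny, and the liver is the organ in which HSCs expand before they move to the bone marrow around birth.

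The livers came from wild-type mice of the C57BL/6 strain, at postnatal day 0, and the cells were sorted as Lineage- Sca1+ cKit+ CD150+ CD48- cells. FSC-A, the area of the forward scatter pulse, is a flow cytometry measure commonly read as cell size. There were 4 libraries of cells with high FSC-A (FSC-A High), 3 of cells with low FSC-A (FSC-A Low) and 4 of HSCs with no such division (unfractionated), each a Smart-seq2 library of 100 to 200 cells. Whether the libraries of a group stand for separate animals is not in the labels, and the p-values below therefore reflect only library-to-library spread, which may be technical. The sorted fractions differed as populations, so that fewer cells of a type and less RNA per cell cannot be told apart.

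The total behind each value was recovered from the deposited numbers as 65.7 to 85.2 M reads (M, 1e6) in FSC-A High libraries and 69.4 to 98.2 M in FSC-A Low libraries. The unfractionated libraries held 21.3 to 30.9 M reads in genes and come in another unit, so no test was run between them and the fractions. RPKM, reads per kilobase of transcript per M reads, is the unit in which the fractions are given below. Summed over 6 HSC markers (Kit, Ly6a, Slamf1, Procr, Mecom and Hlf), FSC-A High libraries had 76.2 to 119 RPKM and FSC-A Low libraries 110 to 131 RPKM. Of the 6, 3 were called lower in FSC-A High and 0 higher. In Kit, Mecom and Hlf every FSC-A High library was below every FSC-A Low library. Ly6a ranged from 12.9 to 43.6 RPKM in FSC-A High and from 11.2 to 14.4 RPKM in FSC-A Low. Lymphoid and mast cell markers were each below 1 RPKM in all 7 libraries. The 6 erythroid markers summed to 110 to 237 RPKM in FSC-A High and 68.2 to 100.3 RPKM in FSC-A Low, mostly Hbb-bt. The granulocyte and macrophage markers summed to 290 to 427 RPKM in FSC-A High against 271 to 276 RPKM in FSC-A Low, with Csf1r below 1 RPKM in every library. Megakaryocyte markers summed to 69.6 to 102.8 RPKM in FSC-A High against 52.3 to 67.0 RPKM in FSC-A Low, hepatocyte markers to 12.1 to 16.0 RPKM in FSC-A High against 7.39 to 16.7 RPKM in FSC-A Low, and endothelial markers to 3.12 to 7.93 RPKM in FSC-A High against 9.72 to 16.7 RPKM in FSC-A Low. In these lists 1 of 2 tested erythroid markers and 1 of 4 tested granulocyte and macrophage markers were called higher in FSC-A High. The 1 tested endothelial marker was called lower. Among all genes tested, 15.6% were called higher and 11.7% lower. All marker calls used the values as deposited, without the correction for transcript length described below. The part of the marker differences in the results below was not tested.

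Of the 86 members, 81 reached the minimum of 1 RPKM in 3 of the 7 sorted libraries and were tested. All but Cox7a1 among them were above 1 RPKM in every library of both groups, so the minimum was not met through one group alone for 80 of the 81. The 5 others were Ndufa4l2, Cox6a2, Cox7b2, Cox8b and Cox8c, which had no value above 0.0747 RPKM in any sorted library. Cox6a2 and Cox8b are known as muscle forms, and Cox7b2 and Cox8c as testis forms.

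Subunit genes of all 5 complexes had higher values in FSC-A High than in FSC-A Low cells. In limma's test on log2(RPKM + 1), with Benjamini-Hochberg adjustment over the 10619 genes tested and a threshold of 0.05, 63 of 81 members were higher, 0 were lower and 18 were not called. Among all genes tested, 15.6% were called higher and 11.7% lower. The median log2 difference (FSC-A High minus FSC-A Low) was 0.90 over the members and -0.044 over all genes. In 65 members every FSC-A High library was above every FSC-A Low library, as it was in 18.9% of all genes, and 32 members differed by more than 1 on the log2 scale, as did 8.02% of all genes. Summed over the members, FSC-A High libraries had 19548, 24154, 22120 and 20500 RPKM and FSC-A Low libraries had 11403, 13200 and 12697 RPKM. The members thus made up 4.78% to 5.50% of all gene values in FSC-A High and 3.42% to 3.78% in FSC-A Low libraries. An RPKM value is a share of the library, not an amount per cell. With the libraries scaled to the same total of gene values, 978 of all genes were higher and 2272 lower in place of 1657 and 1245, the median over all genes was -0.30, 44 members were higher and 0 lower, and 7 uncalled members turned below 0 (Ndufa6, Ndufa10, Ndufab1, Ndufb9, Sdha, Atp5a1 and Atp5g3).

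**Figure D1:**
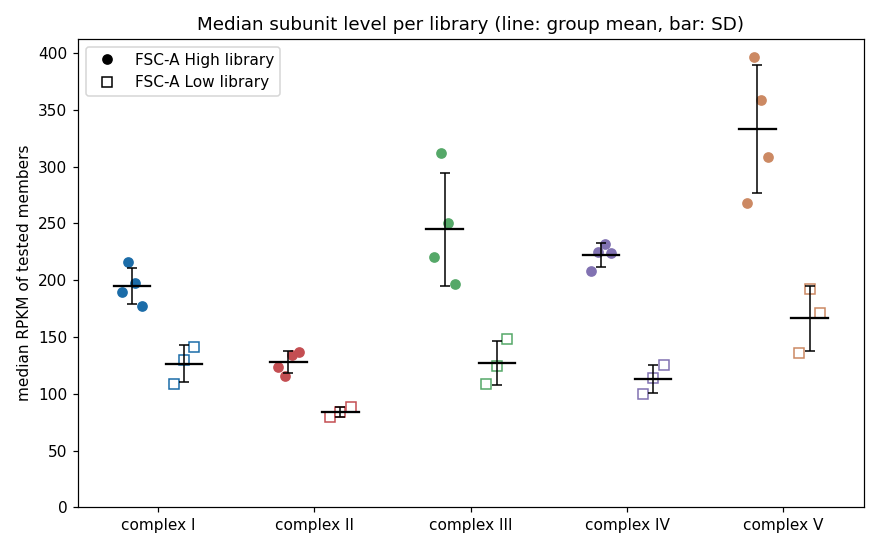
Median RPKM of the tested members of each complex (vertical axis) in each FSC-A High library (filled circles, n = 4) and each FSC-A Low library (open squares, n = 3), with the group mean as a line and the SD as a bar. In each of the 5 complexes all FSC-A High libraries lie above all FSC-A Low libraries, for example 208 to 232 RPKM against 100.0 to 125 RPKM in complex IV.

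The same direction was found in each complex. In complex I 27 of 37 tested members were higher, with a median log2 difference of 0.90, and in complex II 3 of 4, with a median of 0.91. In complex III 7 of 9 were higher, with a median of 0.77. Complex IV had the highest share, 13 of 14 members with a median of 1.04, and complex V had 13 of 17 with the lowest median, 0.64. The medians of the complexes were not tested against each other.

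The difference also followed transcript length across the whole transcriptome. Over all 10564 tested genes with a length, the log2 difference fell with length (Spearman's rho = -0.45, a description across genes, which are not replicates). The members are short, with a median transcript of 679 nt against 2441.5 nt for all genes tested. Within a library, genes under 1000 nt exceeded genes over 4000 nt by a median of 2.82 to 3.12 log2 units in FSC-A High and by 1.74 to 2.06 in FSC-A Low, with no overlap. This shift concerns all short genes. The limma calls of the members and the median log2 differences were therefore taken a second time, after a smooth curve over transcript length had been removed from each library. The counts of non-overlapping genes and of differences above 1, the summed RPKM and the marker calls were not repeated.

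With the length trend removed, 28 of 81 members were higher, 3 were lower and 50 were not called in limma's test, against 9.97% of all genes higher and 7.91% lower. The median log2 difference of the members was 0.39, and that of all genes 0.011. By complex, 13 of 37 tested members of complex I were higher and 2 lower, 2 of 4 were higher in complex II, 4 of 9 in complex III, 4 of 14 in complex IV, and 5 of 17 in complex V with 1 lower. The medians lay close together: 0.39 in complex I, 0.42 in complex II, 0.39 in complex III, 0.40 in complex IV and 0.37 in complex V. The order of the complexes without the correction was therefore not kept. Of the 63 members first called higher, 27 stayed higher and 36 were no longer called. The count of 28 depended on single libraries: it was 17 without FSC-A High replicate 2 and 18 without FSC-A Low replicate 1. In each of the 7 analyses that left out a library, 16 members were higher: Ndufa7, Ndufa9, Ndufa11, Ndufb7, Ndufb8, Ndufs4, Ndufv1, Sdhd, Uqcrb, Uqcr11, Cox6b1, Cox7a2, Cox7b, Atp5b, Atp5h and Atp5k. The corrected value of Ndufa11 (0.72 as deposited, 0.87 corrected) rests on a length of 2661 nt recovered from the values. GENCODE lists 545 nt for it. Without the correction, 58 members were higher in all 7 such analyses. The 5 others lost their call in at least 1 of them: Uqcrc2, Cox4i2, Cox7a2l, Atp5d and Dmac2.

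**Figure D2:**
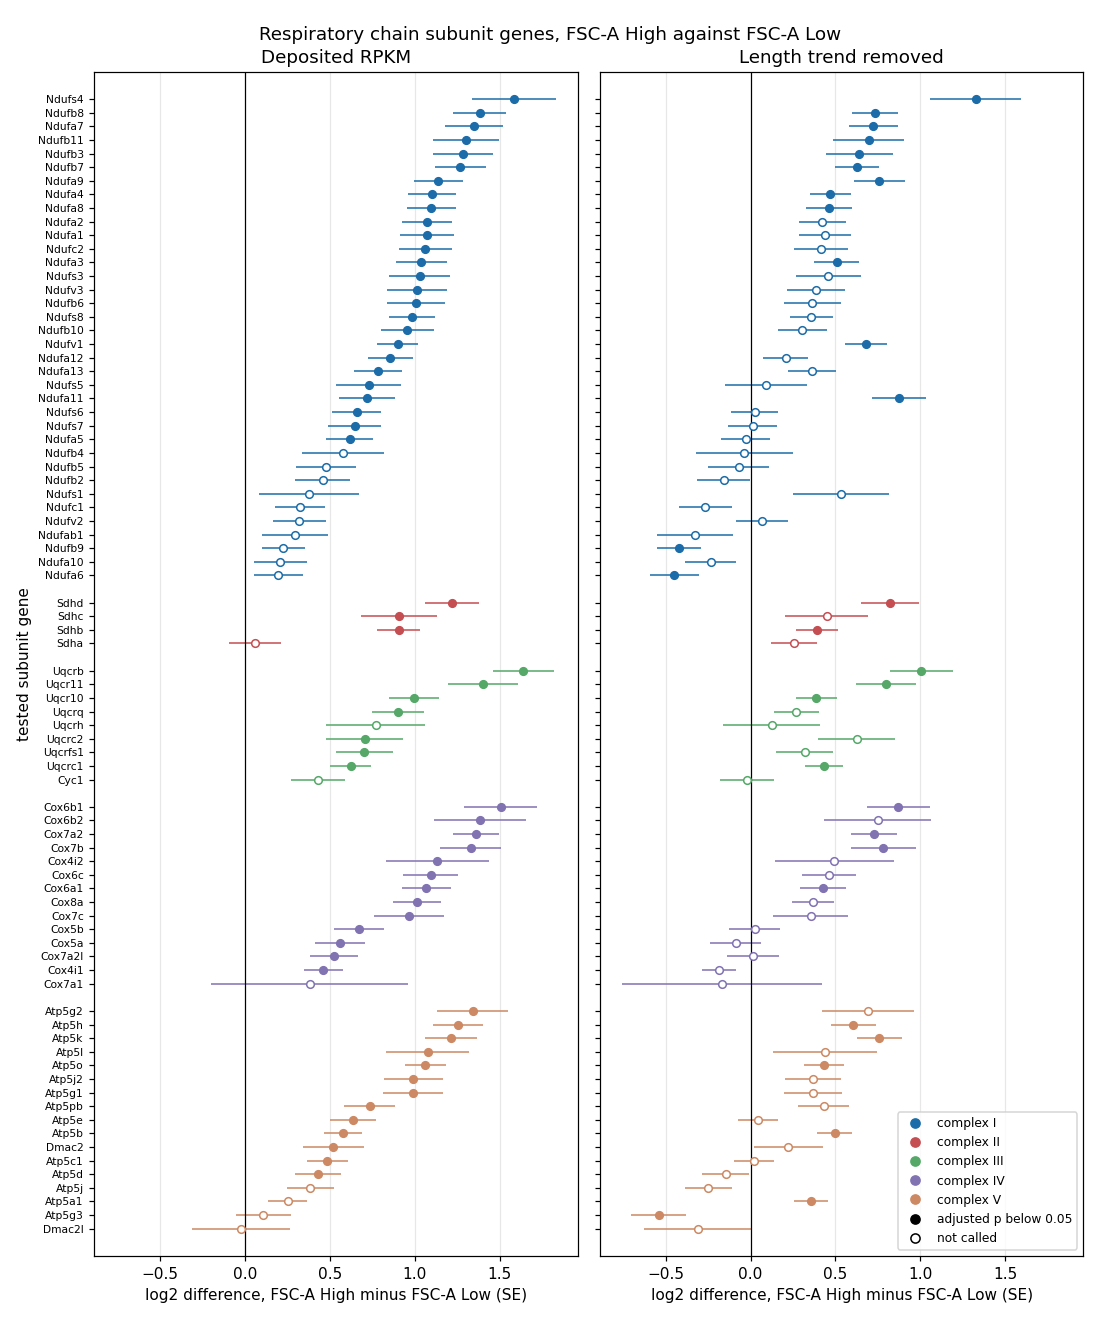
Log2 difference (FSC-A High minus FSC-A Low) of the subunit genes shown, with its standard error, as deposited (left) and with the length trend removed (right), coloured by complex and filled where limma's adjusted p is below 0.05. Nearly all genes lie right of 0 on the left, where most are filled. On the right the genes spread from -0.54 (Atp5g3) to 1.33 (Ndufs4), with fewer filled, and 3 of the filled genes lie left of 0.

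Length classes gave a coarser comparison with no curve. Among transcripts under 600 nt the median log2 difference was 1.01 for 34 members and 0.49 for all 491 genes. From 600 to 1000 nt it was 0.99 for 22 members and 0.63 for all 794 genes. From 1000 to 2000 nt it was 0.70 for 21 members and 0.29 for all 2789 genes, and above 2000 nt it was 0.31 for 4 members and -0.27 for all 6490 genes. The members' median was above that of all genes in every class, with only 4 members in the last. Lengths are not matched within a class. The last has no upper limit, and 2164 of all genes are over 4000 nt, while the longest member has 2859 nt. The values for all genes include the members. Over the members, rho between difference and length was -0.32, and 0.042 after the correction (81 genes). It was -0.062 between difference and mean level.

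**Figure D3:**
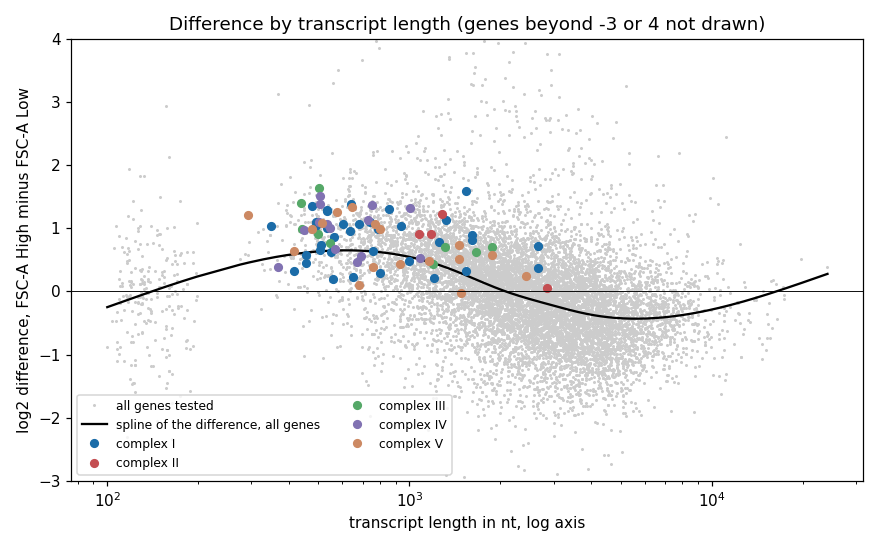
Log2 difference (FSC-A High minus FSC-A Low, vertical axis) against transcript length in nt (log axis) for all tested genes (grey) and the subunit genes (coloured by complex), with a spline of the difference over all genes (black). The subunit genes lie mostly between 292 and 1882 nt, where the curve itself is mostly above 0, and 64 of the 81 had a difference above 0 with the length trend removed.

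Complex I is the NADH dehydrogenase. Its catalytic core of flavin and iron-sulfur proteins includes 7 members, of which 5 were higher as deposited and 2 with the length trend removed. Ndufv1, the flavoprotein that takes the electrons from NADH, had 251, 238, 218 and 236 RPKM in FSC-A High libraries and 120, 126 and 132 RPKM in FSC-A Low libraries. The groups did not overlap, and the log2 difference was 0.90 ± 0.12 (± SE, adjusted p = 0.000245 in limma's test). It was 0.68 with the length trend removed (adjusted p = 0.00222). Ndufs3, Ndufs7 and Ndufs8, core proteins of the ubiquinone-binding arm, were higher by 1.03, 0.65 and 0.98 and were not called after the correction, at 0.46, 0.013 and 0.36. Ndufs1, the largest iron-sulfur subunit, had 25.5, 23.9, 27.4 and 27.8 RPKM in FSC-A High and 27.8, 26.6 and 10.5 RPKM in FSC-A Low. Only FSC-A Low replicate 3 lay apart, and the gene was not called (0.38, adjusted p = 0.374). Its difference was -0.055 without that library. Ndufv2, the smaller flavoprotein partner, was not called either, at 0.32 (adjusted p = 0.148) and 0.066 after the correction.

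The accessory subunits of complex I surround the core and are needed for its assembly and stability. Ndufs4, whose loss in mice causes a fatal encephalopathy, had the largest difference of the complex. It had 25.7, 37.0, 44.3 and 48.6 RPKM in FSC-A High and 11.0, 10.3 and 15.1 RPKM in FSC-A Low. Every FSC-A High library was above every FSC-A Low library, with a log2 difference of 1.58 ± 0.25 (limma, adjusted p = 0.000596). It stayed at 1.33 with the length trend removed (adjusted p = 0.00405), the largest corrected value among the members. Ndufb8, a subunit of the membrane arm widely used as a marker of complex I assembly, had 655, 863, 763 and 732 RPKM in FSC-A High and 242, 261 and 375 RPKM in FSC-A Low. Its log2 difference was 1.38 ± 0.16 as deposited and 0.73 after the correction (adjusted p = 0.00267). Ndufb7 (1.27, corrected 0.63), Ndufa7 (1.35, corrected 0.72) and Ndufa9 (1.14, corrected 0.76) were called on both scales, as was Ndufa4 (1.10, corrected 0.47, adjusted p = 0.0183). Ndufa2 and Ndufb10 were higher by 1.07 and 0.96 as deposited and were not called after the correction, at 0.42 and 0.31.

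Ndufa6 and Ndufb9 were not called as deposited and lay below other transcripts of their length. Ndufa6 and Ndufb9 belong to the LYR family, proteins that bind the mitochondrial acyl carrier protein within complex I. Ndufa6 had 262, 327, 283 and 219 RPKM in FSC-A High and 229, 244 and 234 RPKM in FSC-A Low, with overlapping groups and a log2 difference of 0.20 (adjusted p = 0.336). Ndufb9 had 490, 542, 489 and 413 RPKM in FSC-A High and 390, 467 and 382 RPKM in FSC-A Low, also overlapping, with a difference of 0.23 (adjusted p = 0.215). With the length trend removed they were called lower, at -0.45 (adjusted p = 0.0445) for Ndufa6 and -0.42 (adjusted p = 0.037) for Ndufb9. Calls of this kind depended on single libraries: when 1 was left out, at most 2 members were lower in place of 3, and 0 were lower in 4 of the 7 analyses. With the replicate number as a block, 0 were lower.

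Complex II, the succinate dehydrogenase, is the one respiratory complex encoded wholly in the nucleus. Sdhd, a membrane anchor, had 124, 140, 146 and 162 RPKM in FSC-A High and 61.5, 51.1 and 70.2 RPKM in FSC-A Low. The groups were well apart, with a log2 difference of 1.22 ± 0.16 (adjusted p = 0.000162), and of 0.82 after the correction (adjusted p = 0.00467). Sdhb, the iron-sulfur subunit, had 491, 552, 478 and 447 RPKM in FSC-A High and 226, 289 and 273 RPKM in FSC-A Low. It differed by 0.91 ± 0.13, and by 0.39 after the correction (adjusted p = 0.0412). Sdhc, the other anchor, had 46.8, 53.6, 60.4 and 79.0 RPKM in FSC-A High and 36.3, 35.9 and 22.7 RPKM in FSC-A Low. It was called as deposited (0.91, adjusted p = 0.00977) and not after the correction (0.45, adjusted p = 0.234). Sdha, the flavoprotein that oxidises succinate, had 123, 92.3, 123 and 111 RPKM in FSC-A High and 97.5, 118 and 107 RPKM in FSC-A Low. Its groups overlapped, and the difference was 0.058 ± 0.15 (adjusted p = 0.814). At 2859 nt it is the longest transcript among the members, and its corrected difference was 0.26 (adjusted p = 0.225).

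Complex III carries electrons from ubiquinol to cytochrome c. Uqcrb, a small subunit near the ubiquinone site, showed the largest difference of all members. It had 90.6, 110, 119 and 124 RPKM in FSC-A High and 29.1, 34.0 and 42.1 RPKM in FSC-A Low. The lowest FSC-A High library was above the highest FSC-A Low library, with a log2 difference of 1.64 ± 0.18 (adjusted p = 4.95e-05) and 1.01 after the correction (adjusted p = 0.00232). Uqcr11, the smallest subunit, had 220, 413, 332 and 336 RPKM in FSC-A High and 93.1, 124 and 148 RPKM in FSC-A Low. Its difference was 1.40 ± 0.21, and 0.80 after the correction (adjusted p = 0.00717). Uqcr10, another small subunit, was called on both scales at 1.00 and 0.39, as was the core protein Uqcrc1 at 0.62 and 0.43. Uqcrq, a ubiquinone-binding protein, was called at 0.90 as deposited and not after the correction at 0.27. Of the redox-active nuclear subunits, Uqcrfs1, the Rieske iron-sulfur protein, was called at 0.70 and not after the correction at 0.32. Cyc1, which holds the haem of cytochrome c1, had 244, 312, 250 and 197 RPKM in FSC-A High and 159, 196 and 198 RPKM in FSC-A Low. It was not called (0.43, adjusted p = 0.0649; corrected -0.021).

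Complex IV, the cytochrome c oxidase, holds several subunits with tissue-specific isoforms, which allowed isoforms to be compared within a library. Cox4i1, the common form of the regulatory subunit and the most abundant member, had 1384, 1656, 1465 and 1293 RPKM in FSC-A High and 947, 1171 and 1038 RPKM in FSC-A Low. It was higher by 0.46 ± 0.12 as deposited (adjusted p = 0.0101), and its corrected difference was -0.19 (adjusted p = 0.227). Cox4i2, a form known from lung and for its use at low oxygen, had 16.4, 26.7, 24.0 and 21.2 RPKM in FSC-A High and 11.8, 12.9 and 5.23 RPKM in FSC-A Low. Its difference was 1.13 ± 0.30 (adjusted p = 0.0147), not called after the correction (0.49). It rested on FSC-A Low replicate 3: without that library the difference was 0.77 (adjusted p = 0.0549), and 0.11 after the correction. Of the RPKM of both forms, Cox4i2 held 1.17% to 1.61% in FSC-A High and 0.502% to 1.23% in FSC-A Low.

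Cox6b1, which faces the intermembrane space at the dimer contact, had 234, 438, 399 and 488 RPKM in FSC-A High and 112, 138 and 147 RPKM in FSC-A Low. It rose by 1.51 ± 0.22 (adjusted p = 0.000316), and by 0.87 after the correction (adjusted p = 0.00599). Cox6b2, the form known from testis, had 14.1, 22.7, 19.7 and 30.1 RPKM in FSC-A High and 8.10, 7.65 and 6.52 RPKM in FSC-A Low. It was higher by 1.38 as deposited and held a like share of the pair in both groups, 4.71% to 5.82% in FSC-A High and 4.25% to 6.74% in FSC-A Low. Cox7b and Cox6a1, the forms found in most tissues, were called on both scales, at 1.33 and 1.07 as deposited and 0.78 and 0.43 after the correction. Cox8a, the common form of its family, was called at 1.01 and not after the correction (0.37, adjusted p = 0.0551). Cox5b, which binds zinc, was called at 0.67 and not after the correction, at 0.024.

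The Cox7a family divided. Cox7a2, the form of most tissues, had 217, 254, 279 and 259 RPKM in FSC-A High and 88.4, 100.5 and 103 RPKM in FSC-A Low. Its difference of 1.36 ± 0.14 (adjusted p = 2.86e-05) had the smallest p of the complex, and it remained at 0.73 with the length trend removed (adjusted p = 0.00272). Cox7a2l, a relative that joins complexes III and IV into supercomplexes and is shortened in C57BL/6 mice, had 199, 193, 183 and 170 RPKM in FSC-A High and 112, 127 and 151 RPKM in FSC-A Low. It was higher by 0.52 ± 0.14 (adjusted p = 0.0155), and its corrected difference of 0.016 was not called. Without FSC-A Low replicate 1 it was 0.42 and not called (adjusted p = 0.0693). Cox7a2 therefore held 52.2% to 59.9% of the family's RPKM in FSC-A High and 40.3% to 44.0% in FSC-A Low, while Cox7a2l held 39.2% to 47.8% in FSC-A High and 54.6% to 59.2% in FSC-A Low. Neither range overlapped, and the shares themselves were not tested. Their transcripts differ in length, at 754 nt for Cox7a2 and 1080 nt for Cox7a2l. Cox7a1, the form of heart and muscle, had 0.0832, 3.41, 3.71 and 4.84 RPKM in FSC-A High and 4.37, 0.473 and 1.22 RPKM in FSC-A Low, with overlapping groups, and was not called (0.38, adjusted p = 0.67).

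**Figure D4:**
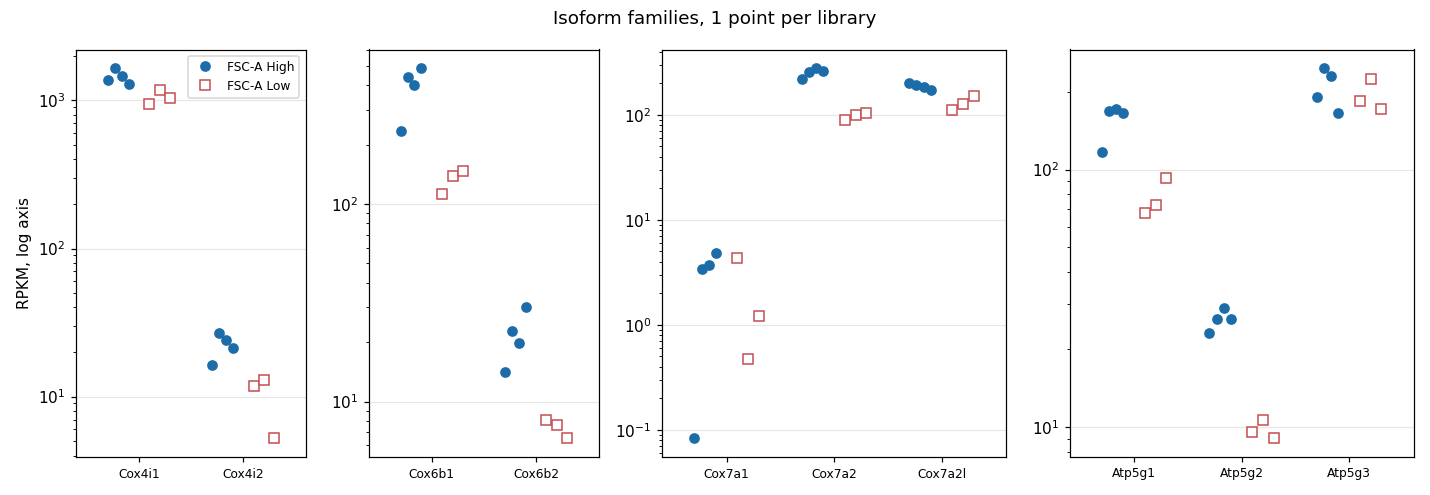
RPKM (log axis) of 4 isoform families in each FSC-A High library (filled circles) and each FSC-A Low library (open squares). Cox7a2 and Atp5g2 are apart between the groups, for example 217 to 279 RPKM against 88.4 to 103 RPKM for Cox7a2, while the libraries of Atp5g3 and of Cox7a1 overlap.

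Complex V is made of the catalytic head, the stalk and the membrane ring of c subunits. Atp5b, the catalytic beta subunit, had 523, 595, 500 and 550 RPKM in FSC-A High and 383, 374 and 332 RPKM in FSC-A Low. It was higher by 0.58 ± 0.11 (adjusted p = 0.00269), and by 0.50 after the correction (adjusted p = 0.00523). Atp5a1, the alpha subunit beside it, had 406, 397, 395 and 387 RPKM in FSC-A High and 345, 360 and 297 RPKM in FSC-A Low. Its groups did not overlap, but the difference of 0.25 ± 0.11 was not called (adjusted p = 0.126). It was the 1 member called higher only after the correction (0.35, adjusted p = 0.0266), and the call was lost in 4 of the 7 analyses that left out a library. Atp5c1, the gamma subunit of the rotor, was called at 0.49 and not after the correction, at 0.019.

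Atp5o, the stalk protein that links head and membrane part, had 775, 818, 821 and 678 RPKM in FSC-A High and 340, 413 and 356 RPKM in FSC-A Low. It was higher by 1.06 ± 0.12 (adjusted p = 5.86e-05) and by 0.43 after the correction. Atp5h, another protein of the peripheral stalk, was called on both scales at 1.25 and 0.61, and Atp5k, a small membrane subunit at the dimer contact, at 1.21 and 0.76. Atp5j2, a small membrane subunit as well, was called at 0.99 and not after the correction at 0.37. Dmac2l had 7.77, 10.5, 13.2 and 16.5 RPKM in FSC-A High and 15.3, 10.5 and 10.2 RPKM in FSC-A Low, and was the only tested member with a value below 0 (-0.025, adjusted p = 0.958).

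The c subunit is made from 3 genes that encode the same mature protein, and these differed among themselves. Atp5g1 had 116, 169, 171 and 165 RPKM in FSC-A High and 67.9, 72.7 and 92.4 RPKM in FSC-A Low, a difference of 0.99 ± 0.18 (adjusted p = 0.0013). Atp5g2 had 23.2, 26.3, 28.9 and 26.3 RPKM in FSC-A High and 9.51, 10.6 and 9.02 RPKM in FSC-A Low, a difference of 1.34 ± 0.21 (adjusted p = 0.000571). Atp5g3, the most abundant of them, had 192, 248, 231 and 166 RPKM in FSC-A High and 184, 225 and 172 RPKM in FSC-A Low. Its groups overlapped, with a difference of 0.11 ± 0.16 (adjusted p = 0.673). The lengths recovered from the values are alike, 798 nt for Atp5g1, 647 nt for Atp5g2 and 679 nt for Atp5g3. GENCODE lists 4715 nt for Atp5g1, 731 nt for Atp5g2 and 714 nt for Atp5g3. With the recovered lengths the correction moved the 3 genes by nearly the same amount. After it Atp5g1 was at 0.37 (adjusted p = 0.164), Atp5g2 at 0.69 (adjusted p = 0.099) and Atp5g3 at -0.54 (adjusted p = 0.0337), the last a call that was lost in 5 of the 7 analyses without a library. Of the family's RPKM, Atp5g3 held 46.5% to 57.9% in FSC-A High and 62.9% to 73.0% in FSC-A Low, and Atp5g1 held 35.1% to 46.2% in FSC-A High and 23.6% to 33.8% in FSC-A Low. The shares were not tested.

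The 16 members listed as catalytic core were higher in 11 cases, with a median of 0.67. The other 65 tested members were higher in 52 cases, with a median of 0.99. The core list holds members of complexes I, II, III and V. It counts all 4 of complex II, with the membrane anchors, while all tested members of complex IV are among the others. The core transcripts are longer, with a median of 1299 nt against 569 nt. With the length trend removed the medians were 0.38 for the core and 0.39 for the others, with 6 of 16 and 22 of 65 called higher.

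Reads of some members can be shared with other loci, and whether the counting used strand is not given in the sources used here. An exon of 25 members overlaps an exon of another protein-coding gene in the GENCODE annotation, in 4 of them on the same strand (Ndufb2, Ndufb8, Ndufb9 and Atp5o). Pseudogenes named after 10 members are annotated, among them Uqcrh, Cox5b, Cox7c, Atp5c1, Atp5k and Atp5l. Of the 49 tested members with neither, 39 were higher as deposited and 19 with the length trend removed. Pseudogenes under other names and overlaps with noncoding genes were not searched, so reads of these 49 may still be shared.

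The genes that build and feed the chain were taken from lists by role. Among all genes tested 15.6% were higher and 11.7% lower as deposited, and 9.97% and 7.91% after the correction, and each list is read against these shares. Of 49 tested assembly factors, 16 (32.7%) were higher and 2 lower (median 0.40). After the correction 3 (6.12%) were higher, a lower share than among all genes, and 3 lower. Cmc2, a factor of complex IV assembly, had 30.2, 33.5, 41.9 and 32.8 RPKM in FSC-A High and 7.72, 7.16 and 5.06 RPKM in FSC-A Low. Its difference of 2.23 ± 0.23 (adjusted p = 3.58e-05) was larger than that of any subunit gene and stayed at 1.91 after the correction (adjusted p = 0.00029). Coa3, which acts with the translation of Cox1, was called on both scales at 1.25 and 0.61. Cox14, of the same step, and Cox19, of copper delivery, were called at 0.94 and 1.20 as deposited only. Of 26 tested genes for electron carriers and cofactors, 8 (30.8%) were higher and 2 lower (median 0.37), against 6 (23.1%) and 3 after the correction. Coq7, a hydroxylase of ubiquinone synthesis, had 83.9, 102, 90.1 and 88.9 RPKM in FSC-A High and 25.7, 30.0 and 27.5 RPKM in FSC-A Low, a difference of 1.68 ± 0.16 (adjusted p = 1.67e-05; corrected 1.08). Etfb, which passes electrons from fatty acid oxidation, and the iron-sulfur cluster genes Isca2 and Lyrm4 were called on both scales, at 1.10, 1.25 and 1.24 as deposited.

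Genes for mitochondrial expression and for the matrix pathways that feed the chain formed the next lists. Of 27 tested genes of mitochondrial gene expression, 5 (18.5%) were higher and 1 lower (median 0.16), close to the 15.6% higher among all genes. Of 24 genes of pyruvate oxidation and the citric acid cycle, 6 (25.0%) were higher and 2 lower (median 0.19). After the correction these counts were 2 (7.41%) and 1, and 0 and 0, against 9.97% and 7.91% among all genes. Slirp and Lrpprc form one complex that stabilises mitochondrial mRNA, and their genes went opposite ways. Slirp had 69.5, 112, 112 and 137 RPKM in FSC-A High and 33.3, 35.7 and 34.5 RPKM in FSC-A Low (1.57 ± 0.21, adjusted p = 0.000193; corrected 0.98). Lrpprc had 8.46, 8.84, 8.67 and 4.30 RPKM in FSC-A High and 26.9, 18.0 and 32.1 RPKM in FSC-A Low (-1.64 ± 0.30, adjusted p = 0.00154; corrected -1.23). Their transcripts are 419 nt and 4621 nt long, and both calls held after the correction. Tfb1m, which methylates mitochondrial ribosomal RNA, and the elongation factor Tsfm were called as deposited only, at 1.42 and 0.64. Of the citric acid cycle enzymes, Mdh2 and Suclg1 were higher by 0.67 each, as was the pyruvate carrier Mpc1 by 0.84, while Pdk1, which inhibits pyruvate dehydrogenase, was lower, at -0.88. None of these 4 was called after the correction.

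Among 17 tested regulators of mitochondrial genes, 0 were higher and 6 (35.3%) were lower as deposited (median -0.23), against 11.7% lower among all genes. After the correction 5 (29.4%) were lower against 7.91%, while the median of the list was 0.070. Pprc1, a coactivator of the PGC-1 family, had 8.04, 3.63, 7.08 and 5.47 RPKM in FSC-A High and 23.3, 20.9 and 13.7 RPKM in FSC-A Low (-1.54, corrected -1.11). Nrip1, a corepressor of oxidative genes, was at -1.80 (corrected -1.40), Myc at -1.13 (corrected -1.03) and Hif1a, the oxygen-sensitive factor, at -1.35 (corrected -0.94). The median transcript of this list is 3918 nt, against 679 nt for the subunit genes. Of 12 tested genes for inhibitors and further subunits, 8 (66.7%) were higher and 0 lower (median 0.57), against 2 (16.7%) and 0 after the correction. Slc25a5, an ADP/ATP carrier, was called on both scales at 0.90 and 0.47, while Chchd2, Higd2a and Atpif1, the inhibitor of ATP synthase, were called as deposited only, at 1.10, 1.15 and 0.87. The lists are not exclusive. Cox7a2l stands both in this list and among the members. Lrpprc is counted as lower both in mitochondrial gene expression and among the assembly factors, where it was 1 of the 2 called lower.

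Promoters of the members, called or not, are described here. Windows of called and uncalled members were not compared, and a part of these promoters in the differences was not tested. Windows from 250 bases before to 50 after an annotated start were taken from RefSeq on GRCm38.p6 for 70 of the 86 members, 76 windows in all. Letter strings of 4 factors known at promoters of respiratory genes were searched on both strands and are given in capitals below. The full palindrome bound by NRF1 was in 6.58% of the members' windows and in 0.971% of all 32851 windows. CCGGAAG, of GABP and other ETS factors, was in 21.1% and 8.86%, AAGATGGCG, of YY1, in 11.8% and 1.40%, and CACGTG, the palindromic E-box, in 11.8% and 7.15%. In all 7 strings were searched after the expression values were known. The 3 not marked were GCATGCGC, which lies within the NRF1 string, in 13.2% against 2.71%, the NRF1 palindrome with any base at 1 of its places, in 23.7% against 4.60%, and AAGATGG, the start of the YY1 string, in 17.1% against 6.34%. A match is a description and not a binding site. For each complex the window of the member with the largest log2 difference among windows with one of the 4 strings is printed, 5′ to 3′ on the minus strand of the genome. The window of Ndufs4 lies at chr13:114388045-114388344. The window of Sdhd lies at chr9:50603800-50604099. The window of Uqcr11 lies at chr10:80406772-80407071. The window of Cox6b1 lies at chr7:30626065-30626364. The window of Atp5g2 lies at chr15:102670998-102671297.
Ndufs4: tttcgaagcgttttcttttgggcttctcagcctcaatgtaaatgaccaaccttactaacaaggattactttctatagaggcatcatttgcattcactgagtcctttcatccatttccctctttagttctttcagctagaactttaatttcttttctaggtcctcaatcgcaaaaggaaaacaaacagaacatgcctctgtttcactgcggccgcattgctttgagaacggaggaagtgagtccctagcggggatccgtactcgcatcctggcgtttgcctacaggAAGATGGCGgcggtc
Sdhd: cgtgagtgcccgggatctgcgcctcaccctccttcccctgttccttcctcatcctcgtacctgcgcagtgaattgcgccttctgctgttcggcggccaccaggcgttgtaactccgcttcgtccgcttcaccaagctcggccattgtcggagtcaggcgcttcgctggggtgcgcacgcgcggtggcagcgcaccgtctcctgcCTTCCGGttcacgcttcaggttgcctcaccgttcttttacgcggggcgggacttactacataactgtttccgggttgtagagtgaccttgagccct
Uqcr11: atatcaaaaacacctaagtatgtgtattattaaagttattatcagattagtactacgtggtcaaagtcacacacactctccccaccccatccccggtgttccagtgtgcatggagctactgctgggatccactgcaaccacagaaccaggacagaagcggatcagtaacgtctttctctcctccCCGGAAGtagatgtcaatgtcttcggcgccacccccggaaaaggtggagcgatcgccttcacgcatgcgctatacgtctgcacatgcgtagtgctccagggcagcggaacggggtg
Cox6b1: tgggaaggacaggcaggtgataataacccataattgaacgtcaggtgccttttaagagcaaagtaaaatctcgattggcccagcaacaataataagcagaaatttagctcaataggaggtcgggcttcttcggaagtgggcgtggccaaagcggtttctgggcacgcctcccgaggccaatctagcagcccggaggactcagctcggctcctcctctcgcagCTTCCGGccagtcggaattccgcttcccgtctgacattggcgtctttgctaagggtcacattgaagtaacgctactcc
Atp5g2: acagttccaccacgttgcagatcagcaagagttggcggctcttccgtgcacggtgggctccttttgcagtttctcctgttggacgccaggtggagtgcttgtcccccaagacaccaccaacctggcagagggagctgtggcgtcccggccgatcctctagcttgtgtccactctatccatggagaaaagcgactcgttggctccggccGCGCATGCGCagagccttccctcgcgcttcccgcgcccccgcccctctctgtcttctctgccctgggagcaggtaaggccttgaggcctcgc
Of the marked strings, Ndufs4 thus holds that of YY1 in its window, Sdhd, Uqcr11 and Cox6b1 hold that of ETS factors, and Atp5g2 holds that of NRF1. Unmarked strings occur as well. The Sdhd window also holds the NRF1 palindrome with any base, and the Uqcr11 window also holds GCATGCGC. Of the genes for these factors, Yy1 was called lower in FSC-A High as deposited and after the correction, at -1.64 and -1.56, while Nrf1 (0.61, adjusted p = 0.145) and Gabpa (-0.10, adjusted p = 0.791) were not called.

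In unfractionated HSCs the subunit genes took 1.80%, 2.19%, 2.20% and 1.72% of reads in the 4 libraries, and 79 or 80 of the 86 members were above 0. Complex V had the largest part, 0.643% to 0.768% of reads, followed by complex I with 0.456% to 0.655%. Per kilobase, Cox4i1 was the highest at 1407 ± 291 CPM per kb (SD, n = 4), and Atp5b was next at 1196 ± 168. Their spreads overlap. Cox4i1 was also the highest member of the sorted fractions, with a mean of 1279 RPKM over the 7 libraries, followed by Atp5o at 600.3 and Ndufb8 at 556. Cox7a1 was lowest among the members above 0, at 0.845 ± 0.951 CPM per kb. Over the 81 tested members the levels per length ranked alike in both data sets (rho = 0.76, a description over genes). Both levels are divided by the same recovered length, which can raise rho by itself. Atp5g2 held 11.1% to 22.6% of its family in unfractionated cells and Cox4i2 held 0.128% to 0.340%. The unfractionated library with the lowest share of reads in subunit genes, replicate 4, also had the highest share of reads in the ribosomal RNA gene Rn45s, 15.2% against 3.06% to 5.26% in the others. Ndufs5, at 17.2 to 36.0 RPKM in the sorted libraries, was listed at 0 in all 4 unfractionated libraries, which come from another gene table.

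**Figure D5:**
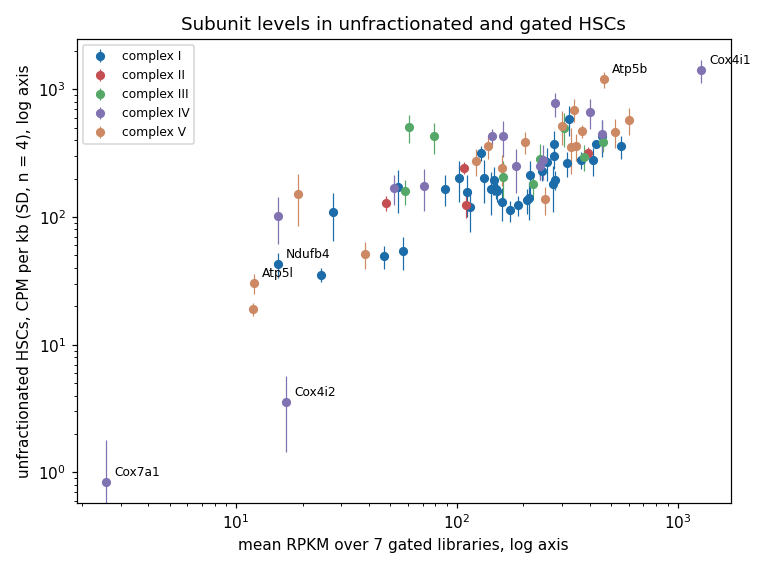
Level per length of the tested subunit genes above 0 in unfractionated HSCs, in CPM per kb (vertical log axis, mean with SD, n = 4), against the mean RPKM over the 7 sorted libraries (horizontal log axis), coloured by complex. The genes follow a rising band (rho = 0.76 with the gene at 0 included), with Cox4i1 at the top and Cox7a1 and Cox4i2 at the bottom. Both axes are divided by the same transcript length.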

How the data were processed

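RNA of HSCs from livers of C57BL/6 mice at postnatal day 0 was sequenced in 11 libraries, grouped by their titles. STAR, DESeq2 and the build mm10 are named, without versions or roles, in the submitters' processing notes. The deposited files of the sorted fractions hold a value per RefSeq transcript whose unit no label gives. It was taken as RPKM made by the authors, because 99.99% of the 12684 genes above 0 in at least 5 libraries split into whole reads within 0.02, a whole transcript length and a whole library total. Of that total, 65.7% to 66.5% lay in genes in FSC-A High libraries and 62.75% to 62.83% in FSC-A Low libraries. These ranges did not overlap, and the cause and its part in the results were not tested. The deposited unfractionated files hold a signal per gene symbol, read counts divided by a size factor per library, and 100% of values became whole reads within 0.01. These were expressed as CPM.

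The 2 size fractions were tested against each other on log2(RPKM + 1) by limma (version 3.58.1, R 4.3.3; linear model, eBayes with trend), which understates fold changes of low genes. Tested genes reached 1 RPKM or more in 3 or more of 7 libraries and were called at an adjusted p below 0.05. The length trend was a natural spline with 5 degrees of freedom over log2 length, removed within each library. It was first computed with GENCODE M21 lengths. These differed from the recovered lengths for some members, being over 1.5 times as long in 9 and far shorter in 1. That 1 was Ndufa11, at 545 nt in GENCODE and 2661 nt as recovered. For this reason the lengths recovered from the values replaced the GENCODE lengths after results had been seen. The GENCODE version is kept as an alternative. Symbols, overlaps and pseudogenes came from RefSeq and GENCODE M21. The other alternatives were scalings (median of ratios, upper quartile, library total, TMM), pseudocounts of 0.5 and 5, no filter and a minimum of 5 RPKM, transcripts summed, GC content in the curve, a replicate block, each library left out, and edgeR 4.0.16 on recovered reads. The steps were tested on simulated data.

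The members, gene lists, markers and tests were chosen with earlier results of these data known. Members named with values were the 5 with the smallest p in each complex, those with the largest and smallest difference, any called lower, isoform families, core catalytic subunits and the 5 with the largest shift among those whose call or direction changed with the length trend; from each pathway list up to 4 called genes with the smallest p were named. Yy1, Nrf1 and Gabpa, the members listed as called in every analysis with a library left out, the untested members and the members noted for shared reads, levels or Ndufs5 in unfractionated cells were named outside this rule after their values were seen. Some single genes that the rule would name are not reported here; they stay in the counts and medians.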

Additional observations from a re-analysis of the deposited data

Results flagged for a closer look

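Of 99 groups of 4 libraries checked, 3 had a library far from the others. The check covered a part of the subunit genes and not every tested member. A library was far if its gap to the nearest library, over the whole range, was above Dixon's 95% critical value. Chance flags about 1 in 20 groups. Atp5g1 was lowest in FSC-A High replicate 1, at 116 RPKM, against 165 to 171 RPKM in the other FSC-A High libraries, and this library was still above all FSC-A Low libraries. Sdhb was lowest in unfractionated replicate 4, at 289 CPM, against 358 to 361 CPM in the others. Cox7b was lowest in unfractionated replicate 1, at 80.0 CPM, against 196 to 217 CPM in the others.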

How the results depend on the processing

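Without the length correction, between 56 (no filter) and 68 (minimum of 5 RPKM) members were higher and 0 lower under the other scalings of median of ratios, upper quartile and TMM, the pseudocounts, the filters and summed transcripts, and the complex medians stayed within 1 SD of the library medians; scaling to the library total gave 44 higher. edgeR's quasi-likelihood test on recovered reads, chosen after seeing the data, called 59 higher and 0 lower.

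With the length trend removed, 28 members were higher and 3 lower; with GC content added 27 and 3, with GENCODE lengths (chosen after seeing the data) 28 and 2, and with the replicate block 26 and 0. Over all genes these settings gave 1053, 972, 1095 and 807 higher, and the GC and block settings 804 and 630 lower; the library total gave 978 higher and 2272 lower. Medians in the order length, length with GC, library total, block with length, GENCODE lengths were 0.39, 0.35, 0.59, 0.38 and 0.39 for complex I, 0.42, 0.39, 0.60, 0.38 and 0.63 for complex II, 0.39, 0.39, 0.46, 0.40 and 0.40 for complex III, and 0.40, 0.44, 0.73, 0.40 and 0.39 for complex IV; for complex V the first 4 were 0.37, 0.29, 0.32 and 0.34. The cause of these moves was not tested beyond the correction itself.

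Leaving out each library gave 60 to 66 members higher and 0 lower, and 17 to 28 higher and 0 to 2 lower with the length trend removed. All genes ranged from 1302 to 1628 higher and 879 to 1152 lower, and from 737 to 949 and 586 to 804 with the trend removed. The medians ranged from 0.84 to 0.94 (corrected 0.33 to 0.39) in complex I, 0.81 to 0.99 (0.33 to 0.48) in II, 0.78 to 0.98 (0.33 to 0.44) in III, 0.97 to 1.11 (0.32 to 0.47) in IV and 0.59 to 0.72 (0.28 to 0.41) in V. The share of unfractionated reads in subunit genes ranged from 1.90% to 2.06%.

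Of the 80 tested members above 0, 16 turned below 0 with the length trend removed, 18 with GC content added, 13 with the block and 12 with GENCODE lengths, and 7 at the library total. Among the members named with values these were the following. With the length trend removed Ndufa6 was at -0.45 (with GC -0.51, block -0.35, GENCODE -0.45), Ndufb9 at -0.42 (-0.41, -0.35, -0.40), Atp5g3 at -0.54 (-0.61, -0.43, -0.51), Cox7a1 at -0.17 (-0.21, -0.43, -0.25), Cox4i1 at -0.19 (-0.063, -0.13, -0.14) and Cyc1 at -0.021; with GC also Ndufv2 at -0.10, Cox7a2l at -0.041, Atp5c1 at -0.045 and Cox5b at -0.047. At the library total Ndufa6 was at -0.12, Ndufb9 at -0.087, Sdha at -0.25, Atp5a1 at -0.063 and Atp5g3 at -0.21, and at the upper quartile Dmac2l at 0.018. Over single libraries left out, with and without the correction, the ranges were -0.52 to 0.30 for Ndufa6, -0.50 to 0.32 for Ndufb9, -0.64 to 0.22 for Atp5g3, -0.60 to 0.93 for Cox7a1, -0.23 to 0.54 for Cox4i1, -0.12 to 0.54 for Cyc1, -0.46 to 0.15 for Dmac2l, -0.055 to 0.75 for Ndufs1, -0.086 to 0.82 for Ndufs7, -0.082 to 0.43 for Ndufv2, -0.054 to 0.64 for Cox7a2l, -0.020 to 0.52 for Atp5c1, -0.045 to 0.78 for Cox5b and -0.0090 to 0.34 for Sdha.

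Same-numbered FSC-A High and FSC-A Low libraries did not deviate together (correlations of -0.031, 0.059 and 0.00013). Such values cannot exclude a shared source, because library noise can hide it. The labels do not say whether the numbers pair the samples. A replicate block gave 67 members higher and 0 lower. Cox7a1 and Cox4i2, among the lowest members, varied widely within a group. Cox7a1 ran from 0.0832 to 4.84 RPKM in FSC-A High, and Cox4i2 from 5.23 to 12.9 RPKM in FSC-A Low. The cause of this spread was not tested.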
